A study of Homo sapiens with 16 samples.

Results

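Replication-dependent histone genes make the bulk of the histone protein that packages newly copied DNA. They were taken here as the protein-coding genes whose symbol begins with HIST1H, HIST2H, HIST3H or HIST4H, or in the newer naming with H1- and a number from 1 to 6, H2AC, H2BC, H3C or H4C. The annotation held 66 such genes, and 35 of them had their identifier among the 57736 genes of the count table, so the other 31 were not analysed here. These 35 members comprised 6 genes of class H1 (the linker histones, which sit on the DNA between nucleosomes) and, for the nucleosome core, 9 of class H2A, 10 of H2B, 5 of H3 and 5 of H4. In all, 24 lay on chromosome 6, 10 on chromosome 1 and 1 (H4C16) on chromosome 12.

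Total RNA, depleted of ribosomal RNA, was sequenced from H9 cells, a human embryonic stem cell line, during differentiation to cortical neurons by dual SMAD inhibition. Cells were collected on day 0 (D0, undifferentiated), D12, D30 and D70, with DMSO as the control or with 40 µM Thiamet-G (TMG), which inhibits O-GlcNAcase, the enzyme that removes O-GlcNAc from proteins. Each of the 8 groups held 2 biological replicates of 1 cell line, so every comparison rests on 2 libraries against 2. The medium changed with stage in both arms. It was mTeSR1 for D0, then knockout serum replacement medium with the SMAD inhibitors and N2 medium up to D12, and N2/B27 medium after it. In the labels, the treatment tag of 8 libraries contradicts the title: the tag follows the replicate number (control for every replicate 1, TMG for every replicate 2), whereas titles and sample descriptions give control and TMG libraries with both numbers. Groups follow the titles, and any difference between replicate numbers given here is therefore also the difference between the tags.

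Most mRNAs end in a poly(A) tail, but the mRNAs of these genes end just after a short stem-loop in the 3′ untranslated region, which is bound by SLBP and cut by a U7 snRNP complex. They are made mainly during S phase and are degraded when DNA synthesis stops, so their level is widely used as a sign of DNA replication. Some members are known to give, in cells that have stopped dividing, a longer polyadenylated RNA as well. Libraries made from total RNA hold both forms.

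The stem-loop was present in the genome after every member. Within 150 bases after the stop codon, all 35 members held a 16-base core with at most 2 differences from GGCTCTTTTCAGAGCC, the most common 16-base stretch there whose first 6 bases pair with its last 6, starting 23 to 69 bases after the stop, and 21 held it exactly. By the same search 63 of 20175 protein-coding genes (0.312%) held such a core, 28 of them outside the 35 members. All 5 H4 members carried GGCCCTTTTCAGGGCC, in which a base of each stem arm differs and the arms still pair. The loops of 5 members whose values are followed below are printed with the 16-base core in capitals and 5 bases on either side.
H1-5, GRCh37 chr6:27834570-27834595, minus strand: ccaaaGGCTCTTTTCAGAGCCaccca
H2AC6, GRCh37 chr6:26124892-26124917, plus strand: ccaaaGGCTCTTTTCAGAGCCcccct
H2BC21, GRCh37 chr1:149857733-149857758, minus strand: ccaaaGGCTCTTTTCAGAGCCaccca
H3C13, GRCh37 chr1:149784778-149784803, minus strand: ctaaaGGCTCTTTTCAGAGCCactgc
H4C11, GRCh37 chr6:27792232-27792257, plus strand: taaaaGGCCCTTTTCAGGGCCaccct

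Where the annotated transcript stops divided the members. In GENCODE, which is not the annotation the reads were counted on, 13 members had a transcript reaching more than 200 bases past the loop: HIST2H2AA3, H2AC1, H2AC6 and H2AC25, H2BC4, H2BC5, H2BC11, H2BC15, H2BC18, H2BC21 and H2BC26, H4C8 and H4C16. The other 22 ended at or near the loop. The level of each form was not measured, because reads were summed per gene.

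Promoters of 33 members were matched in the RefSeq table (GRCh38.p14), and the 250 bases before the start were searched on both strands for 4 motifs. Of the windows listed for H3C4, the one that is also that of H2AC7 was left out. TATAAA, the TATA box, was found in 24 of 33, against 10.7% of 35116 promoters of the same length. CCAAT stood in 29 of 33 against 32.0%, and in 0 of 4 H4 promoters. The octamer ATTTGCAT, bound by OCT1, was found in 12 of 33 against 1.63%, in 6 of 9 H2A and 6 of 10 H2B promoters. The H1 box AAACACA was found in all 6 H1 promoters and in no other member, against 4.82% of all promoters. In 5 pairs of detected H2A and H2B genes the genes face away from each other from starts 219 to 248 bases apart, so that 1 stretch of DNA lies before both. A promoter of each kind is printed with all matches of the 4 motifs in capitals; these are letters in a window, not tested binding sites.
H1-4, GRCh38.p14 chr6:26156079-26156328, plus strand: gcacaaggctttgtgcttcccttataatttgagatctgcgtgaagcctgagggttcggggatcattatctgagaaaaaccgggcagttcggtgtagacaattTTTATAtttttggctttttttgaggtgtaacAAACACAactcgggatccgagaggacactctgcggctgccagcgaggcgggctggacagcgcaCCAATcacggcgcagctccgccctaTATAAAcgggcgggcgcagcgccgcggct
H2BC11 (shared with H2AC11), GRCh38.p14 chr6:27132796-27133045, minus strand: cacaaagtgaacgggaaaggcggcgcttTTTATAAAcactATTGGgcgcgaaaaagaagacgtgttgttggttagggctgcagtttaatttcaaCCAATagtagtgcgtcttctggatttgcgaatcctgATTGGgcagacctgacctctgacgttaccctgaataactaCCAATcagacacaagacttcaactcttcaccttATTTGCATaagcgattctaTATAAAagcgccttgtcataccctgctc
H4C11, GRCh38.p14 chr6:27823842-27824091, plus strand: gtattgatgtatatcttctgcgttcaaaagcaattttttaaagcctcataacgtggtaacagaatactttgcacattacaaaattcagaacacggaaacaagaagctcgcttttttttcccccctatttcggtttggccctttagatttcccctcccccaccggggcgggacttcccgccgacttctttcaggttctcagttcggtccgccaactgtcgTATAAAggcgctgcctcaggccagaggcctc

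Libraries held 10334908 to 19836878 counts. Members took 9539 to 114914 counts in a library, which was 0.0880% to 0.606% of its total. Levels are given in CPM, counts scaled to the library's total and by TMM. The filter on low counts left 24249 genes and 33 members. The 2 that did not pass were H2AC1 and H2BC1, known as testis genes, with 6 counts each over all 16 libraries. Reads of some members cannot be assigned with confidence: 9 of the 35 share more than 50% of their 50-base stretches with other transcripts, among them H3C15 (100%), H3C14 (99.2%), H3C4 (96.5%), H4C11 (92.1%) and H3C13 (78.3%). The stage labels were checked on marker lists. The summed level of 5 stem cell markers was 2760 to 3082 CPM on D0 and 1.34 to 2.89 CPM on D70. PAX6, a marker of cortical progenitors, was at 3.95 to 14.6 CPM on D0 and 303 to 584 CPM on D12, and it was at 2.49 CPM in D70 TMG replicate 2 against 306 to 586 CPM in the other D70 libraries. SOX1, another progenitor marker, was near 0 throughout.

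The first question was how histone mRNA changed along the differentiation of control cells. On D0 the members summed to 4602 and 6614 CPM. By D12 this sum was 1798 and 4000 CPM. The D30 libraries gave 895 and 1162 CPM and the D70 libraries 1815 and 1034 CPM. The mean fell 5.45-fold from D0 (5608 ± 1423 CPM, SD, n = 2) to D30 (1029 ± 189 CPM) and stood at 1424 ± 552 CPM on D70, 3.94-fold below D0. Both D0 libraries lay above every later control library. The D12 libraries differed from each other by 2.22-fold, and the D30 and D70 ranges overlapped. In bulk RNA, fewer dividing cells and less histone mRNA in each cell cannot be told apart.

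**Figure D1:**
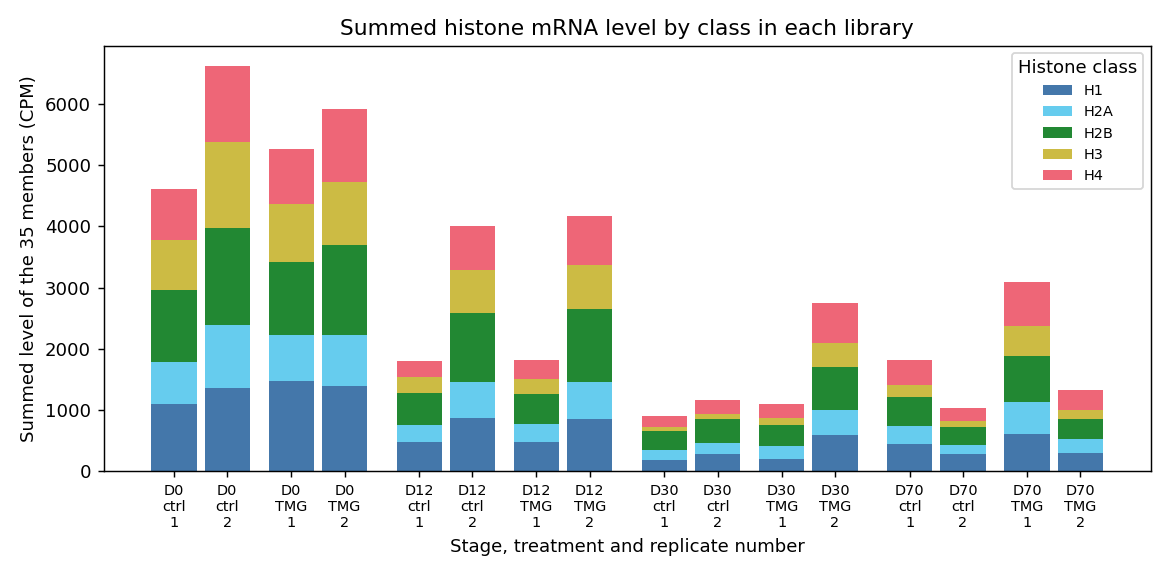
Stacked bars give the summed level (CPM) of the 35 members in each of the 16 libraries, coloured by histone class, with stage, treatment (ctrl, control) and replicate number below. The 4 D0 libraries stand highest, at 4602 to 6614 CPM, and in both arms replicate 2 is the higher on D0, D12 and D30 and replicate 1 on D70.

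Between D0 and D70, 21 of 33 tested members fell in control cells (edgeR quasi-likelihood test, false discovery rate 5%), when 14.7% of all genes tested fell. In that test 0 members rose at a false discovery rate of 5%, when 15% of all genes did. All 33 fold changes were below 0, 28 of them at an unadjusted p under 0.05 (20.5% of all genes), with a median of -2.03 on the log2 scale. H1, H2A, H2B, H3 and H4 each held members that fell: 4 of 6, 6 of 8, 6 of 9, 3 of 5 and 2 of 5. The count rested on every library compared, since it was 10 without D0 control replicate 1, 2 without D0 control replicate 2, 11 without D70 control replicate 1 and 5 without D70 control replicate 2. The shares of all genes that fell in these fits, in the same order, were 8.31%, 8.34%, 8.79% and 10.7%. DESeq2 called 27 lower, when it called 16.3% of all genes lower, and the fit with no filter on low counts called 7, against 6.4% of all genes.

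The largest fall by estimate was that of H3C13, an H3 gene of the chromosome 1 cluster, with H3C14 close to it. Its D0 levels were 131 and 206 CPM, followed by 21.05 and 68.5 CPM at D12, 4.97 and 4.61 CPM at D30, then 12.5 and 9.80 CPM at D70. From D0 to D70 its log2 fold change was -3.91 ± 0.83 (SE, adjusted p = 0.00627), and its D0 mean was 35.2-fold above its D30 mean. Its D0 libraries did not overlap those of any later stage. The neighbouring H3 genes H3C14 and H3C15, whose reads cannot be separated, showed the same order. H3C15 went from 267 and 439 CPM to 46.8 and 34.3 CPM (log2 fold change -3.12 ± 0.81, adjusted p = 0.0162). H3C14 went from 156 and 401 CPM to 39.0 CPM and to 0 counts in D70 control replicate 2, and did not pass (log2 fold change -3.83, adjusted p = 0.0683).

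Among linker histones, H1-1 had the largest fall. Its levels of 12.6 and 23.3 CPM on D0 and 3.08 and 0.964 CPM on D70 gave a log2 fold change of -3.13 ± 0.92 (adjusted p = 0.0267). H1-5 was at 399 and 445 CPM on D0 and at 87.7 and 36.6 CPM on D70 (log2 fold change -2.76 ± 0.80, adjusted p = 0.0255). H1-2, which is known to be made outside S phase too, went from 305 and 360 CPM to 159.7 and 90.8 CPM (-1.41 ± 0.47, adjusted p = 0.0427). H1-3 also passed, at -1.71 ± 0.47 (adjusted p = 0.0196). H1-4 had a fold change of -1.31 ± 0.49 and did not pass (adjusted p = 0.0649), and H1-6, the testis form, was at no more than 2.10 CPM in any library. On D30 H1-5 was at 24.9 and 32.4 CPM, and its D0 mean was 14.7-fold above its D30 mean.

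H2A and H2B members spanned a wide range. H2AC13 went from 162 and 225 CPM on D0 to 35 and 14.2 CPM on D70 (log2 fold change -2.97 ± 0.88, adjusted p = 0.0271), and H2AC11 from 146 and 273 CPM to 40.1 and 29.9 CPM (-2.58 ± 0.65, adjusted p = 0.0141). At the other end stood H2AC6, for which a polyadenylated form is known. Its D0 levels were 125 and 189 CPM, its D12 levels 77.5 and 141 CPM. The D30 libraries held 82.4 and 83.9 CPM, those of D70 126 and 53.3 CPM, so its D70 libraries reached into the D0 range. Its fold change of -0.81 was the smallest of all 33 members and did not pass. H2BC21, also known in a polyadenylated form, fell from 155 and 226 CPM to 81.1 and 59.7 CPM (-1.43 ± 0.31, adjusted p = 0.00693). H2BC5 fell from 199 and 225 CPM to 66.02 and 52.4 CPM (-1.84 ± 0.43, adjusted p = 0.0102), and H2BC12 had a log2 fold change of -2.16 ± 0.74 (adjusted p = 0.0482).

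**Figure D2:**
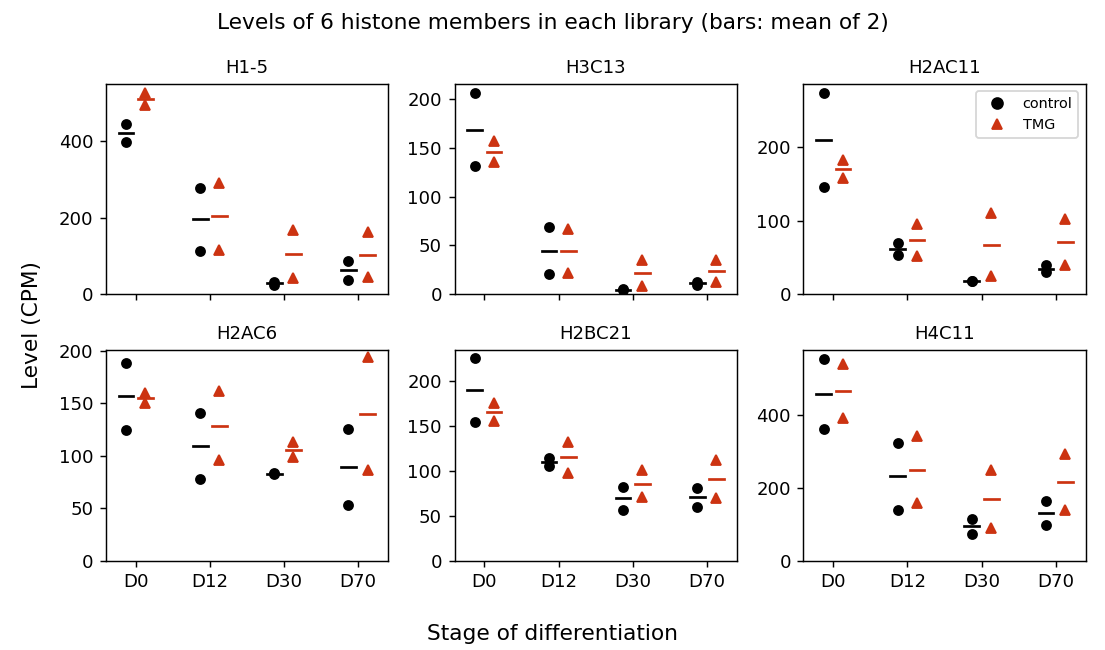
Levels (CPM, axes from 0) of 6 members at the 4 stages, each point a library and each bar the mean of 2, for control (black circles) and TMG (red triangles). H3C13 was at 4.97 and 4.61 CPM in the D30 controls after 131 and 206 CPM on D0, while H2AC6 was still at 82.4 and 83.9 CPM.

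H4C16, the H4 gene on chromosome 12, fell already by D12. It was at 77.9 and 137 CPM on D0 and 16.2 and 36.1 CPM on D12. It was 1 of the 2 members that fell between D0 and D12 (log2 fold change -2.03 ± 0.51, adjusted p = 0.0226). The second was H2BC15 (-1.47 ± 0.42, adjusted p = 0.0373), at 77.6 and 114 CPM on D0 and 32.1 and 36.9 CPM on D12. Over that interval 9.71% of all genes tested fell, so a count of 2 of 33 is below the background share, although the members' median was -1.03 on the log2 scale (-0.47 without D12 control replicate 1, -1.79 without D12 control replicate 2) and 24 of 33 had both D0 libraries above both D12 libraries, against 33.2% of all genes. With no filter on low counts 0 members were called, and with a library left out 0 or 1. H4C11, the highest H4 gene, went from 361 and 555 CPM on D0 to 164 and 97.3 CPM on D70 (-1.81 ± 0.62, adjusted p = 0.0485).

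From D12 to D30 the members' median was -1.62 and 0 passed in edgeR, when 1.69% of all genes fell (median -0.74 without D12 control replicate 2, and -2.13 without D12 control replicate 1), although 19 of 33 had an unadjusted p under 0.05 in that direction against 10.6% of all genes. DESeq2 called 11 of them lower, against 4.39% of all genes. H3C13 came nearest in edgeR (log2 fold change -3.22 ± 0.82, adjusted p = 0.0588). From D30 to D70 the median was 0.56 (0.08 without D70 control replicate 1, 0.77 without D70 control replicate 2) and 28 of 33 fold changes were above 0. In edgeR 0 members passed, when 0.305% of all genes rose, and 0 had an unadjusted p under 0.05 (10.8% of all genes, upward).

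The summed levels of the classes fell by different factors in control cells, a difference that was not tested. H3 genes made 17.9% and 21.3% of the members' summed level in D0 controls, 14.7% and 17.4% on D12, and 8.04% and 7.14% on D30. Its share on D70 was 10.3% and 8.66%. H2B genes went the other way, from 25.7% and 23.8% on D0 to 33.5% and 34.9% on D30, while the H4 share was 17.8% and 18.8% on D0 and 18.8% and 18.9% on D30. On the D0 to D30 means, the H3 sum fell 14.4-fold, the H2B sum 3.91-fold and the H1, H2A and H4 sums 5.15-fold, 5.14-fold and 5.32-fold. In TMG cells the H3 share was 18.1% and 17.5% on D0 and 11.2% and 14.6% on D30. Reads of H3C13, H3C14, H3C15 and H3C4 cannot be assigned with confidence, so the H3 values carry that limit.

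Members were also divided by the annotated end. From D0 to D70, the 12 tested members with a transcript past the loop had a median of -1.88 on the log2 scale, against -2.49 for the 21 without one. Calls were 7 of 12 and 14 of 21, beside 14.7% of all genes, and the difference between the groups was not tested. From D12 to D30 the medians were -1.20 and -1.82. The members with a longer transcript held 30.8% and 28.9% of the summed level on D0 and 46.3% and 44.2% on D30. For the 7 members known to give polyadenylated RNA the D0 to D70 median was -1.43, with 5 of 7 called, beside the same 14.7%. Among the 7, H1-2 and H2BC12 lie in the group without a longer annotated transcript, so the 2 divisions do not coincide. All 5 H3 members lie in the group without a longer transcript, so class and annotated end cannot be told apart for them.

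**Figure D3:**
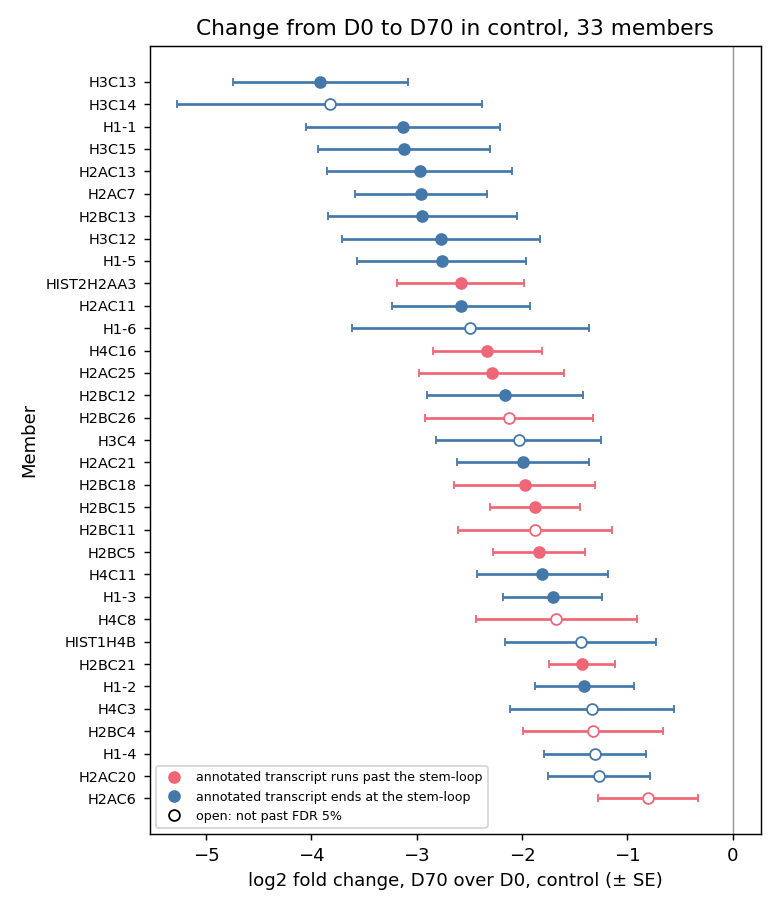
Log2 fold change from D0 to D70 in control cells, with its SE, for the 33 tested members in order of size; red marks members whose annotated transcript runs past the stem-loop and filled points pass a false discovery rate of 5%. Values run from -3.91 for H3C13 to -0.81 for H2AC6.

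Ranked per kilobase of coding sequence, the order of the members changed accordingly. In D0 controls H4C11 stood first with 1481 ± 443 CPM per coding kilobase (SD, n = 2), then H3C15 (865 ± 299) and H3C14 (682 ± 424), which do not differ beyond their spread, then H2BC18 (672 ± 92.6), H4C8 and H1-5 (622 ± 48.9). H2AC6 ranked 18 and H2BC21 ranked 12. In D30 controls H4C11 was again first (304 ± 93.9), followed by H2AC6 (213 ± 2.69), H2BC21 (184 ± 48.1), H2BC5 (179 ± 32.0) and H2BC4 (159 ± 30.4), whose neighbours overlap. H3C15 had moved from rank 2 to 18, H1-5 from 6 to 20 and H3C13 from 17 to 30. Reads from a longer transcript count toward a gene but not toward its coding length, which raises this value for the members with one.

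For H2A and H2B genes that share a promoter, the ratio of their read counts was followed from library to library. It is not corrected for transcript length or shared reads, so the ratios cannot be compared between pairs. Over the 16 libraries the ratio of H2AC13 to H2BC13 lay between 1.35 and 2.11 (median 1.72), while both genes fell. The ratio of H2AC25 to H2BC26 lay between 0.622 and 1.23 (median 1.02), and that of H2AC6 to H2BC4 between 0.721 and 1.70 (median 1.17). H2AC11 against H2BC11 ranged from 0.655 to 2.25 (median 1.63), and H2AC20 against H2BC21 from 0.292 to 0.857.

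In cells given TMG histone mRNA also declined. Their members summed to 5270 and 5913 CPM on D0, 1822 and 4174 CPM on D12, 1104 and 2743 CPM on D30, and 3098 and 1320 CPM on D70. From D0 to D70, 9 of 33 members fell, when 14.1% of all genes did, with a median of -1.42 (-2.10 without D70 TMG replicate 1 and -0.95 without D70 TMG replicate 2). These 9 were H1-1, H1-2, H1-3, H1-5, H2AC7, H2AC25, H2BC5, H3C13 and H4C16. H3C13 had a log2 fold change of -2.60 ± 0.78 (adjusted p = 0.0305). The count was 1 without D0 TMG replicate 1, D0 TMG replicate 2 or D70 TMG replicate 2 and 15 without D70 TMG replicate 1, when 6.27%, 6.35%, 10.7% and 12.8% of all genes fell. DESeq2 called 14, when 14.9% of all genes fell in it, and the fit with no filter on low counts 3, against 5.98%. From D0 to D12 only H4C16 passed in edgeR (-1.80 ± 0.51, adjusted p = 0.0350), when 9.19% of all genes fell. Between D12 and D30, 0 members passed (median -0.66, from -1.49 to 0.23 when a library was left out) and 0.124% of all genes fell. Between D30 and D70, 0 passed (median 0.16, from -0.69 to 1.07 when a library was left out), and 0.00412% rose. The median turned above 0 without D12 TMG replicate 2 in the first interval, and below 0 without D30 TMG replicate 1 or D70 TMG replicate 1 in the second. In both intervals 0 members had an unadjusted p under 0.05 (7.15% of all genes lower in the first, 6.45% higher in the second).

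The second question was whether TMG changed histone mRNA within a stage. In edgeR 0 of 33 members passed at D0, D12, D30 or D70. At each of these stages 0% of all genes tested passed in either direction. On D0 the members' median log2 fold change was -0.01, with 16 of 33 above 0. On D12 it was 0.06, with 20 of 33 above 0. Left-out libraries moved it between -0.24 and 0.28 on D0 and between -0.85 and 0.75 on D12, with either sign. At an unadjusted p under 0.05 there were 0 members on D0, against 0.367% of all genes higher and 0.895% lower, and 0 on D12, against 1.54% higher and 0.936% lower. On D0 the lowest unadjusted p belonged to H1-3, at 114 and 153 CPM in control and 177 and 179.8 CPM in TMG (log2 fold change 0.42 ± 0.45, adjusted p = 1). H2BC21 (-0.20 ± 0.31) and H1-6 (0.49 ± 0.94) came next. H1-3 and H1-5 were the only 2 members with both TMG libraries above both controls on D0, an order seen in 19.7% of all genes. On D12 the lowest p values were those of H2BC26 (-1.30 ± 0.78), its promoter partner H2AC25 (-0.72 ± 0.66) and H2BC15 (0.39 ± 0.41), each with an adjusted p of 1. H2BC26 was at 10.2 and 45.0 CPM in control and 7.42 and 15.01 CPM in TMG, so control replicate 2 stood above the other 3 libraries.

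On D30, 32 of 33 members stood higher in the TMG arm (median 0.85 on the log2 scale), and the all-gene median was near 0. Of these, 7 had an unadjusted p under 0.05, against 7.1% of all genes in that direction, and 0 members were lower at that p, against 4.89%. DESeq2 called 0 members on D30, when 1.56% of all genes rose in it. Both TMG libraries lay above both controls for 18 of 33 members, against 23.1% of all genes, and below both for 1, H1-1, against 21%. H2AC11 had the lowest p. It was at 17.6 CPM in each control and at 24.9 and 110.3 CPM in TMG (log2 fold change 1.94 ± 0.64, adjusted p = 0.280). H3C13 went from 4.97 and 4.61 CPM to 8.25 and 35.4 CPM (2.19 ± 0.80, adjusted p = 0.324), and H3C15 from 21.03 and 20.4 CPM to 32.7 and 141 CPM (2.07 ± 0.79, adjusted p = 0.342). In each case TMG replicate 2 was far above the other 3 libraries. Without that library the members' median was 0.25, and without TMG replicate 1 it was 1.23.

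By class the D30 medians were 0.34 for H1, 0.91 for H2A, 0.51 for H2B, 1.71 for H3 and 1.28 for H4. Both TMG libraries were above both controls for 5 of 5 H3 members and 1 of 9 H2B members, against 23.1% of all genes. The difference between classes was not tested. The H3 sum was 72.0 and 83.0 CPM in control and 123 and 400 CPM in TMG. The H2B sum was 300.4 and 405 CPM in control and 343 and 693 CPM in TMG. The medians were 0.43 for the 12 members with a transcript past the loop and 1.42 for the 21 without. H2AC6, at 82.4 and 83.9 CPM in control and 98.9 and 113 CPM in TMG, had a fold change of 0.35.

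On D70, 32 of 33 members again had a positive fold change in TMG (median 0.73), with an unadjusted p under 0.05 in 0 of 33 (2.61% of all genes higher, 2.88% lower) and both TMG libraries above both controls in 5, against 9.79% of all genes. The lowest p values belonged to H2AC11 (40.1 and 29.9 CPM in control, 103 and 39.9 CPM in TMG; 1.03 ± 0.63, adjusted p = 0.923), H2BC15 (0.67 ± 0.42, adjusted p = 0.932) and H2AC7 (0.88 ± 0.60, adjusted p = 0.946). Here TMG replicate 1 was the high library, and without it the median was -0.03, in a comparison that sets TMG replicate 2 alone against both controls. It was 0.31 without control replicate 2, 1.12 without TMG replicate 2 and 1.26 without control replicate 1. Within a replicate number the members' summed level in TMG was 1.71 times that of control for replicate 1 and 1.28 times for replicate 2. The TMG effect on D30 was also tested against that at other stages. In edgeR 0 members and 0% of all genes passed for D30 against D0, D12 or D70. In that order 2, 0 and 0 members had an unadjusted p under 0.05 upward (3.08%, 1.83% and 2.42% of all genes). The medians of the difference were 1.03, 0.98 and 0.21.

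**Figure D4:**
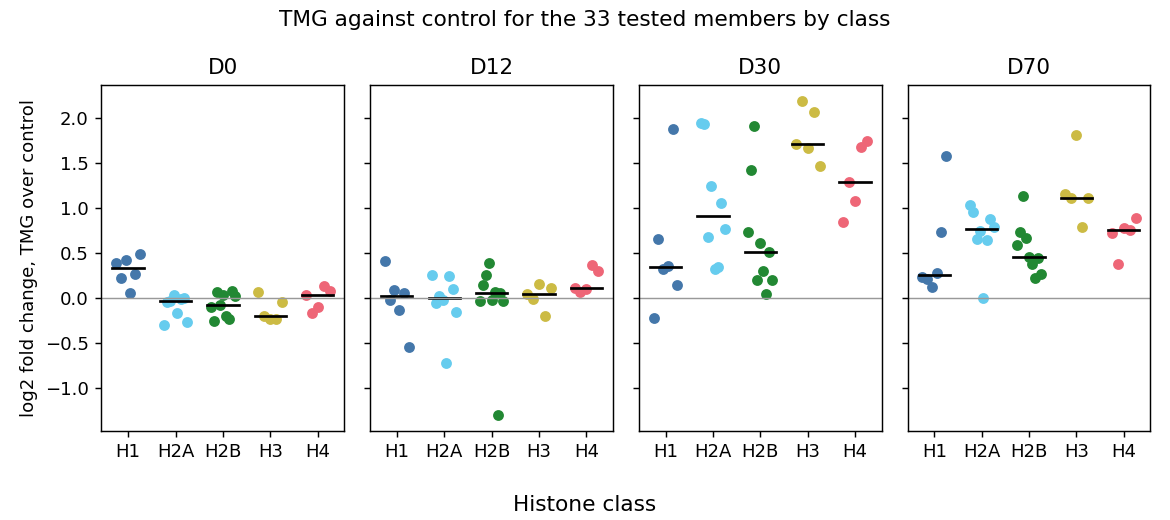
Log2 fold change of TMG over control at each stage for the 33 tested members, grouped by histone class, with a bar at the class median. With all libraries the members' medians were -0.01 on D0 and 0.06 on D12, and points lie above 0 for 32 of 33 members on D30 and D70, where no member passed the test.

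Differences between replicates ran through most or all of the set. On D0, replicate 2 was above replicate 1 for 33 of 33 members in control (median log2 difference 0.55) and 28 of 33 in TMG (0.18), against 50% and 48.1% of all genes. On D12, replicate 2 was above replicate 1 for 33 of 33 members in control (median log2 difference 1.36) and for 33 of 33 in TMG (1.31), against 47.9% and 47.4% of all genes. On D70 the order turned: replicate 2 was below replicate 1 for all 33 members in control (median -0.81) and in TMG (-1.36), with replicate 2 above replicate 1 in 51.0% and 47.9% of all genes. On D30 TMG replicate 2 was higher for 33 of 33 members (1.36), and control replicate 2 for 25 of 33 (0.29), against 47.7% and 53.1% of all genes. On D12 these gaps were larger than the members' median change from D0 to D12 (-1.03 in control). With groups set by the treatment tag instead of the title, 9 of 33 members were lower with TMG on D70 in edgeR, when 9.22% of all genes were, and 0 passed at D0, D12 and D30. That grouping was added after the data were seen.

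A list of S phase and proliferation genes outside the members, called S phase genes here, was summed for comparison. The 25 on the list (among them MKI67, a proliferation marker, the MCM helicase genes and PCNA) summed to 3717 and 3662 CPM in D0 controls, 1644 and 1626 CPM on D12, 598 and 566 CPM on D30 and 672 and 679 CPM on D70. Between D0 and D70, 23 of 25 fell, when 14.7% of all genes did, with a median log2 fold change of -2.51. MKI67 went from 625 and 494 CPM to 67.8 and 40.2 CPM (-3.37 ± 0.52, adjusted p = 0.00117). Both sets declined, while in control cells their replicate ratios differed. Control replicate 2 over replicate 1 was 2.22 for the members and 0.989 for the S phase genes on D12, and 0.570 and 1.01 on D70. In the TMG arm the same ratios were 2.29 and 1.57 on D12, and 0.426 and 0.767 on D70, so there both sets differed in the same direction. The members' sum divided by the S phase sum was 1.24 and 1.81 in D0 controls, 1.09 and 2.46 in D12 controls, 1.497 and 2.05 in D30 controls, then 2.70 and 1.52 in D70 controls.

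On D30 the S phase genes summed to 693 and 1352 CPM in TMG, so TMG replicate 2 was high in both sets, 2.39-fold above control replicate 2 for the S phase genes and 2.36-fold for the members. MKI67 was at 50.1 and 56.5 CPM in control and 77.8 and 207 CPM in TMG. In the S phase list 0 of 25 passed. At an unadjusted p under 0.05, 13 were higher in TMG, against 7.1% of all genes. Both TMG libraries lay above both controls for 18, against 23.1% of all genes. Of 5 cell cycle exit genes 0 passed between the arms on D12 or D30. CDKN1A, which encodes the cell cycle inhibitor p21, had a log2 fold change of -1.07 ± 0.42 (adjusted p = 1) on D12 and -1.10 ± 0.42 (adjusted p = 0.348) on D30, and CDKN2C, another inhibitor, 0.28 ± 0.52 and 0.75 ± 0.51.

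**Figure D5:**
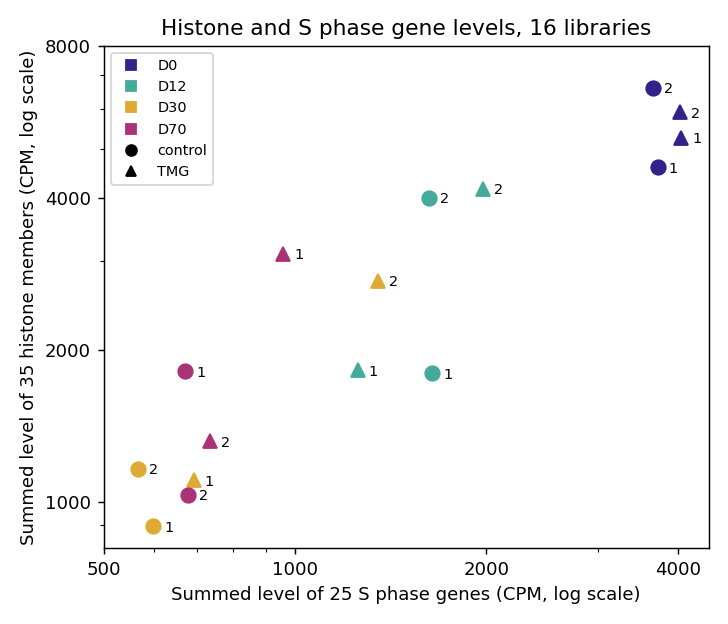
Summed level of the 35 members against that of 25 S phase and proliferation genes in each library (CPM, both axes on a log scale), with stage as colour, circles for control, triangles for TMG and the replicate number beside each point. The D12 control points share an S phase level (1644 and 1626 CPM) and differ in histone level (1798 and 4000 CPM).

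Cell make-up also differed between those libraries. The 5 mesenchymal markers (COL1A1, COL1A2, COL3A1, DCN and LUM) summed to 29194 CPM in D30 TMG replicate 2, against 4335 to 5474 CPM in the other D30 libraries, and all 5 were highest there. DCN and LUM, which define such cells most narrowly, were at 381 and 465 CPM in it and at no more than 22.9 and 31.3 CPM in the others. On D70 the sum was 44852 and 58705 CPM in control and TMG replicate 2 and 7323 and 3665 CPM in replicate 1. The library rich in these markers was thus the higher in histone mRNA on D30 and the lower on D70. Of the 5 stem cell markers 0 passed on D30 in edgeR. At an unadjusted p under 0.05 there were 3, all higher in TMG, against 7.1% of all genes in that direction. POU5F1 was at 0.0939 and 0.401 CPM in control and 9.12 and 5.48 CPM in TMG (log2 fold change 4.65 ± 0.58, adjusted p = 0.0868), beside 823 to 892 CPM in the D0 libraries. NANOG (2.74 ± 0.51, adjusted p = 0.155) and TDGF1 (3.90 ± 0.96, adjusted p = 0.194) also had both TMG libraries above both controls, whereas LIN28A (0.02 ± 0.51) and DPPA4 (-0.37 ± 0.42) did not. The sum of the 5 was 50.3 and 28.5 CPM in control and 65.3 and 25.2 CPM in TMG. Other marker lists differed between the D70 libraries too. Neural progenitor markers summed to between 1684 and 4584 CPM over these libraries, and astroglia markers to between 7.87 and 71.7 CPM. The 1684 CPM was the sum in TMG replicate 2, where PAX6 was far below the other D70 libraries, as given above. That sum came almost wholly from other genes on the list. The 4 choroid plexus markers summed to 10121 and 362 CPM in control and 3117 and 53.2 CPM in TMG, and the 5 neuron markers to 1140 and 548 CPM in control and 1165 and 205 CPM in TMG, so both were higher in replicate 1, as the members were. On D30 the choroid plexus sum was 78.6 and 220.1 CPM in control and 208 and 338 CPM in TMG, and the neuron sum 550.4 and 663 CPM in control and 780.0 and 946 CPM in TMG. The part of any of these cell types in the histone values was not tested.

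Genes that act on histone mRNA had smaller fold changes than most members. SLBP, which binds the stem-loop, was at 22.3 and 24.9 CPM in D0 controls and 28.6 and 23.4 CPM in D70 controls (log2 fold change 0.14 ± 0.19, adjusted p = 0.616). NPAT, which drives transcription of these genes at the S phase entry, had -0.65 ± 0.21 (adjusted p = 0.0377), and its partner CASP8AP2 -1.20 ± 0.23 (adjusted p = 0.00397). Of the 11 transcription and 3′ processing factors listed, 6 fell and 1 rose from D0 to D70, against 14.7% and 15% of all genes. The 1 that rose was ZNF473, a U7 snRNP partner (1.38 ± 0.47, adjusted p = 0.0477), and the list's median was -0.65. In edgeR 0 of the 11 passed between TMG and control at any stage. On D30, 1 was higher and 1 lower at an unadjusted p under 0.05, against 7.1% and 4.89% of all genes.

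Histone chaperones, which hand histones to DNA, fell with the members: 9 of 10 passed from D0 to D70, when 14.7% of all genes fell, with a median of -1.17. NASP, a carrier of H3 and H4, went from 505 and 481 CPM to 83.1 and 92.4 CPM (-2.49 ± 0.28, adjusted p = 0.000226). CHAF1A, a subunit of the assembly factor CAF-1, had -3.27 ± 0.43 (adjusted p = 0.000485). On D30 none of the 10 passed between TMG and control. Of these, 5 had an unadjusted p under 0.05, all higher in TMG, against 7.1% of all genes in that direction.

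Histone variants outside the family, most of them made from polyadenylated mRNA, had a steadier sum. The 11 genes listed summed to 1379 and 2145 CPM in D0 controls and 1590 and 1121 CPM on D70, a 1.30-fold lower mean, beside 3.94-fold for the members. From D0 to D70, 3 of 11 fell, when 14.7% of all genes did: H2AX, which also gives a stem-loop mRNA in S phase (-2.50 ± 0.61, adjusted p = 0.0119), H2AZ1 (-1.82 ± 0.31, adjusted p = 0.00175) and CENPA, the centromeric H3, made in G2 (-3.20 ± 0.66, adjusted p = 0.00532). H3-3B, which encodes H3.3, was at 234 and 409 CPM on D0 and 622 and 345 CPM on D70 and did not pass (0.59 ± 0.33, adjusted p = 0.196). Of the listed RNAs without a poly(A) tail that are not histone mRNAs, 4 were found and summed (RN7SL2, RN7SK, MALAT1 and TERC). RMRP, RPPH1 and RN7SL1 were also listed and had no matching identifier. The ratio of replicate 2 to replicate 1 for their sum was 2.66 in control and 1.94 in TMG on D0, where the members had 1.44 and 1.12. It was 1.22 and 0.979 on D12 (members 2.22 and 2.29), 1.05 and 0.765 on D30 (members 1.30 and 2.48), and 0.780 and 0.801 on D70 (members 0.570 and 0.426). The direction was thus that of the members on D0 and D70 in both arms, and not in the TMG arm on D12 and D30.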

How the data were processed

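Members and gene lists were chosen with earlier results of these data, the study's own included, known. Total RNA was depleted of ribosomal RNA, and libraries were made with a kit that does not mark strand, so reads of overlapping antisense genes cannot be separated. The authors aligned reads to hg19 with Bowtie2 and deposited RSEM 1.2.12 expected counts per gene, here whole numbers. Members were matched by gene identifier. Genes were filtered with filterByExpr (minimum count 10, total 15), scaled by TMM and tested with edgeR 4.0.16 (quasi-likelihood, robust) in R 4.3.3, with all 16 libraries in 1 model of 8 groups (8 residual degrees of freedom) and Benjamini-Hochberg adjustment over 24249 genes. CPM used effective library sizes. Intervals from SE and SD rest on 2 libraries a group. By rule, the text names H1 members, the 3 members of each other class with the highest mean CPM, members known to give polyadenylated RNA, the 3 with the lowest p in each TMG comparison, the 2 with the largest called fall or rise between control stages, duplicate genes, and at most 5 genes of each other list by mean CPM with MKI67, SLBP and MALAT1 (a further gene of the rule is not reported here); other genes named were chosen after their values were seen. Stem-loops were read from GRCh37 with GENCODE v44lift37 and promoters from RefSeq. The step was tested on simulated data: for TMG at D30, with 200 of 23618 genes changed 4-fold, edgeR recovered 75 with 2 false calls, DESeq2 117 with 41 false calls and edgeR with the replicate block 59 with 2. Alternatives were DESeq2 1.42.0, RLE and total-count scaling, no filter, a replicate block, leaving out each library, near-identical genes summed and groups by the treatment tag. All 66 annotated genes were sought, and 31 are not analysed here. No library pair agreed within sampling noise (chi-square per degree of freedom at least 25.55).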

Additional observations from a re-analysis of the deposited data

How the results depend on the processing

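TMG against control gave 0 members past a false discovery rate of 5% at each stage under every alternative that kept the groups of the titles, while groups set by the treatment tag, an alternative chosen after seeing the data, gave 9 lower on D70. The tag also turned the log2 fold change of H2BC21 on D0 (0.37), of H2BC26 (1.77) and H2AC25 (1.12) on D12, and of H2AC11 (-1.03), H2BC15 (-0.85) and H2AC7 (-0.44) on D70. For falls in control cells from D0 to D12, DESeq2 called 4 (12.9% of all genes in that fit) and no filter 0 (4.15%), from D12 to D30 DESeq2 called 11 (4.39%) and total-count scaling 1 (2.45%), and from D0 to D70 no filter called 7 (6.4%). In TMG cells DESeq2 called 2 (12% of all genes) and no filter 0 (4.03%) from D0 to D12, and DESeq2 14 (14.9%), total-count scaling 14 (19.1%) and no filter 3 (5.98%) from D0 to D70. Without 1 library the control counts ran from 0 to 1 (D0 to D12) and 2 to 11 (D0 to D70), and the TMG counts from 0 to 1 and 1 to 15. Without 1 library the TMG effect turned sign for H2BC21 (-0.42 to 0.11) and H1-6 (-0.29 to 2.42) on D0 and for H2BC26 (-2.01 to 0.14), H2AC25 (-1.28 to 0.19) and H2BC15 (-0.20 to 0.80) on D12. The causes were not tested. Total-count scaling moved the median of all genes by up to -0.23 (TMG, D0 to D70). Samples share only a replicate number, which no label ties to a culture or day, and the correlation over genes of control and TMG deviations ran from 0.0453 (D0) to 0.607 (D70). With the replicate block 18 members fell in control (15.1% of all genes) and 6 in TMG cells (14.7%) from D0 to D70.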
